A study of Saccharomyces cerevisiae with 30 samples.

Results

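Polysomes held by the signal recognition particle (SRP) without any drug were compared with the soluble polysomes of the same yeast strain, to describe which messages they were translating. SRP is an RNA and protein particle that binds signal sequences and transmembrane segments as they leave the ribosome and brings the ribosome to its receptor on the endoplasmic reticulum (ER), where the Sec61 channel takes over. Tail-anchored proteins carry their single membrane segment at the very end of the chain, so it leaves the ribosome only after translation has ended, and the GET pathway inserts them afterwards. Many yeast secretory proteins can also be translocated after translation through Sec61 with the help of SEC62, SEC63 and their partners.

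Of 30 labelled samples, 4 form the comparison: 2 libraries of SRP72-bound polysomes and 2 of soluble polysomes. Another 2 libraries of membrane polysomes entered the same fit. All 6 came from 1 genotype, BY4741 srp72::SRP72-TAP-HIS3MX, in which the SRP subunit SRP72 carries an affinity tag, grown in YPD to mid-log phase, collected by fast filtration and lysed frozen with no drug in the culture. SRP72-bound polysomes were pulled down from the soluble fraction by that tag. No pulldown from an untagged strain is among the labelled samples, so the background of the pulldown was not measured. Footprints of RNase I were counted per open reading frame (ORF), which does not say where along the ORF a ribosome stood. Fractions are compared as shares of footprints, so a gene that is lower in the pulldown can have been left behind or diluted by others, and these cannot be told apart.

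Depth was 34.7 and 25.8 M counts for soluble, 34.4 and 24.1 M for membrane and 31.5 and 20.2 M for SRP72-bound polysomes, over 5904 ORFs, of which 5393 had enough counts to test. The labels do not say whether the 2 replicates of a fraction are separate cultures, and all p-values rest on the spread within these pairs, which may be technical. Replicates differed beyond sampling noise: chi-square divided by its degrees of freedom was 15.3 in the soluble and 89.5 in the SRP72-bound pair. Replicate-wise log2 ratios of SRP72-bound to soluble footprints had a Pearson r of 0.987 over the 5393 genes, which share libraries within a replicate and are not independent.

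The make-up of the libraries differed before any scaling. ORFs that the authors' deposited table assigns to the classes SS (signal sequence), SSTMD (signal sequence and transmembrane domain) or TMD (transmembrane domain), 879 together and called signal-class genes here, took 4.60% and 4.84% of soluble footprints. They took 60.6% and 58.5% of SRP72-bound footprints and 36.6% and 33.7% of membrane footprints. Most of that rise lay in the TMD class, with 1.81% and 1.80% in the soluble, 45.3% and 43.2% in the SRP72-bound and 19.0% and 17.04% in the membrane libraries. The SS class went from 2.69% and 2.93% to 12.3% and 12.0%, and here the membrane libraries stood slightly above the pulldown, at 14.0% and 13.5%. Genes of the class Cytonuclear, which carry no predicted signal, still made up 24.2% and 25.1% of SRP72-bound footprints, down from 82.8% and 82.6% in the soluble libraries. Mitochondrial genes (class mito) were at 3.98% and 4.08% of soluble, 1.63% and 1.90% of SRP72-bound and 5.46% and 5.52% of membrane footprints. For every one of these shares the 2 SRP72-bound values lie outside the soluble pair, although 2 libraries against 2 cannot give a two-sided exact permutation p below 0.333.

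**Figure D1:**
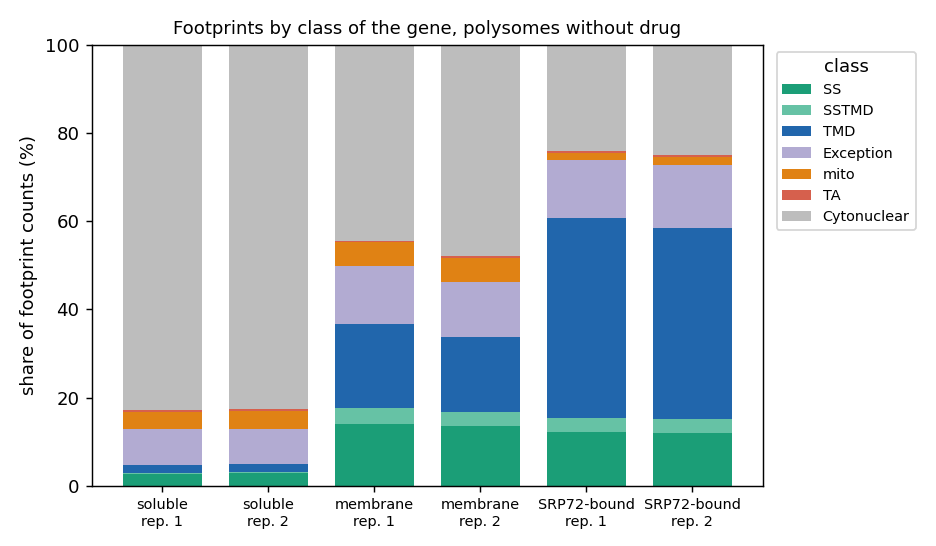
Share of footprint counts in each class of the authors' table (y axis, percent) for the 6 polysome libraries without drug, 1 bar per library. The blue TMD segment widens from 1.81% and 1.80% in the soluble libraries to 45.3% and 43.2% in the SRP72-bound libraries, while the grey Cytonuclear segment shrinks from 82.8% and 82.6% to 24.2% and 25.1%.

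Gene by gene, 2105 of 5393 genes were higher in SRP72-bound than in soluble polysomes and 2098 were lower (39% and 38.9%, edgeR quasi-likelihood test, p adjusted after Benjamini and Hochberg and called at 0.05, as for all calls of genes here). Of the higher genes, 1390 were up by over 2-fold (25.8% of all tested) and 835 by over 16-fold (15.5%). How many genes count as lower depends on the scaling. The trimmed mean of M values (TMM) puts the median gene at a log2 fold change of −0.04, whereas scaling to cytosolic reference genes (ribosomal proteins, glycolysis and the TRiC chaperonin) puts it at 0.75 and gives 3827 higher and 130 lower (71% and 2.41%). Values below use TMM, and gains of 4 or more on the log2 scale are far larger than this shift.

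Nearly all signal-class genes were higher in the pulldown. Of 796 tested, 743 were higher, 22 lower and 31 not called, with a median log2 fold change of 5.998, and 621 were up by over 16-fold. In the TMD class 516 of 541 were higher (median 6.08) and 9 lower, a count that became 5 without soluble replicate 2 and 4 without either SRP72-bound replicate. In the SSTMD class 73 of 74 were higher (median 6.22). In the SS class 154 of 181 were higher and 13 lower, with the median at 5.52 and the lower quartile at 2.10, against 4.81 in the TMD class. SS proteins with a GPI anchor had 38 of 48 genes higher (median 5.15), and the other SS proteins 116 of 133 (median 5.52).

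Medians of the TA, mito and Cytonuclear classes lay near zero. Of 52 tested TA (tail anchor) genes 5 were higher and 38 lower, with a median of −0.55 (17 higher and 2 lower with cytosolic scaling, median 0.24). Of 536 mitochondrial genes 212 were higher and 210 lower, shares near the 39% and 38.9% of all tested genes, at a median of −0.03 (389 higher and 5 lower with cytosolic scaling, median 0.75). Of 3419 Cytonuclear genes 755 were higher and 1723 lower, at a median of −0.29 (2137 higher and 116 lower with cytosolic scaling, median 0.50). The class named Exception, which the table's notes do not define, was mixed: 390 of 590 were higher and 105 lower (median 0.97), and it holds membrane proteins such as the oligosaccharyltransferase subunit STT3 beside cytosolic enzymes such as TDH3.

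**Figure D2:**
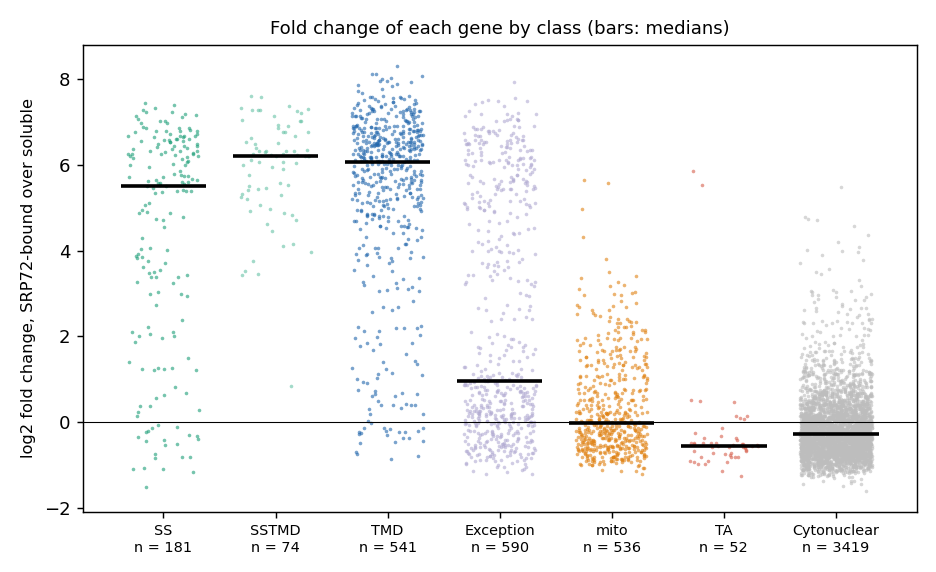
Log2 fold change of SRP72-bound over soluble polysomes (y axis) for each tested gene, 1 point per gene, in the 7 classes of the authors' table (x axis, n below each name), with the class median as a bar. Medians of SS, SSTMD and TMD lie at 5.52, 6.22 and 6.08, those of mito, TA and Cytonuclear at −0.03, −0.55 and −0.29.

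The largest called gains among genes with soluble counts were in multispanning membrane proteins. PER33 of the nuclear envelope and ER (YLR064W, chromosome XII 265456 to 266277 in R64) had 7.33 and 6.73 CPM (counts scaled to library size with TMM factors) in the soluble and 2277 and 1651 in the SRP72-bound libraries. Its log2 fold change was 8.12 ± 0.26 (SE; adjusted p = 1.82e-08, edgeR). Values given with ± from here on are log2 fold changes with their SE. The lipid phosphate phosphatase LPP1 followed at 8.08 ± 0.22, GPI19, a subunit of the enzyme that starts GPI anchor synthesis, at 8.03 ± 0.21, and the plasma membrane protein YRO2 at 8.02 ± 0.17. ECM34 and the hexose transporter family member HXT14 had no count in either soluble library and 42 and 37 counts over both SRP72-bound libraries. Against a floor of 3 counts over the soluble pair they were at least 40.98-fold and at least 36.1-fold higher, a floor that covers counting error only.

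Secretory machinery was captured almost throughout. All 20 folding factors of the ER lumen were higher, at a median of 6.44 and with a range of 2.10 to 7.52. The chaperone KAR2, which pulls chains through Sec61, rose from 29.4 and 30.2 to 5336 and 5635 CPM (7.52 ± 0.18), and the disulfide isomerase PDI1 from 101 and 119 to 10143 and 8903 CPM (6.44 ± 0.17). In both genes the lowest SRP72-bound library stood above the highest soluble library by more than an order of magnitude. All 14 tested P-type ATPases were higher (median 6.33), led by the ER ion pump SPF1 at 7.59, with the plasma membrane proton pump PMA1 at 7.15 and its first signal at codon 112. All 7 PMT O-mannosyltransferases (median 6.77) and all 19 tested amino acid and hexose permeases (median 6.49) were higher as well. So were all 14 p24 proteins and cargo receptors of ER export, with a median of 6.07 and a lowest value of 3.54. Among vacuolar hydrolases 9 of 10 were higher, the other being the aminopeptidase APE1, which reaches the vacuole straight from the cytosol (−0.36 ± 0.11; 0.44 with cytosolic scaling). The APE1 call was lost without soluble replicate 2 (−0.20) or either SRP72-bound replicate (−0.35 and −0.36). Carboxypeptidase Y, PRC1, was at 6.38 and the membrane-anchored CPS1 at 7.56, whereas the subtilisin-like protease B, PRB1, gained only 0.63 ± 0.09.

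The subunits of one complex did not all move together. In the oligosaccharyltransferase, which transfers N-glycans to entering chains, 7 of 9 subunits were higher. The catalytic STT3 went from 7.66 and 7.50 to 1109 and 1592 CPM, a log2 fold change of 7.48 ± 0.27, and OST1 from 12.5 and 15.7 to 1906 and 1834 CPM (7.06 ± 0.18). OST2 (YOR103C, chromosome XV 516449 to 516841 in R64), a protein of 130 codons with its first signal at codon 46, had 66.9 and 66.4 CPM in the soluble, 62.6 and 61.8 in the membrane and 9676 and 7272 in the SRP72-bound libraries. It was therefore as far above the membrane pair (log2 fold change 7.09) as above the soluble pair (6.99 ± 0.18). The 2 smallest subunits were lower in the pulldown: OST4, of 36 codons, went from 11.4 and 12.8 to 7.95 and 8.72 CPM (−0.54 ± 0.12), and OST5, of 86 codons, from 70.6 and 63.6 to 56.5 and 47.7 CPM (−0.36 ± 0.10). With cytosolic scaling both signs turned, to 0.25 and 0.42, and OST5 was not called without soluble replicate 1 (−0.30) or SRP72-bound replicate 2 (−0.25).

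In the Sec61, Ssh1 and Sec63 complexes 5 of 9 subunits were higher and 4 lower. SEC61, the channel itself, rose from 26.2 and 28.4 to 2863 and 2859.9 CPM (6.71 ± 0.18), its homologue SSH1 by 6.38 ± 0.18 and the J-domain subunit SEC63 by 6.44 ± 0.15, and these were also abundant on membranes, with SEC61 at 2235 and 1714 CPM there. SEC62 (YPL094C, chromosome XVI 369839 to 370663 in R64) and SEC66 differed. SEC62 stood at 94.7 and 98.4 CPM in the soluble, 173 and 169 in the membrane and 18080.3 and 14127 in the SRP72-bound libraries, and SEC66 at 28.6 and 29.2, 286 and 251 and 5116 and 3964. Their gains over soluble polysomes were 7.38 ± 0.18 and 7.30 ± 0.18, and over membrane polysomes 6.56 and 4.08. The small tail-anchored subunits were lower, with SSS1 at −0.97, SBH1 at −0.83 and SBH2 at −0.97, as was the peripheral subunit SEC72 at −0.61. With cytosolic scaling none of these 4 was called and SEC72 changed sign, to 0.18.

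All 9 tested subunits of signal peptidase and the GPI transamidase were higher, from 4.65 to 6.88. Among the signal peptidase subunits the small SPC1 went from 29.2 and 30.6 to 1725 and 1167 CPM (5.60 ± 0.21) with only 21.6 and 24.7 CPM on membranes, and SPC2 from 43.4 and 41.5 to 1213 and 924 CPM with 89.8 and 80.5 on membranes. SPC3, with 170 codons from its first signal to the stop, and the catalytic SEC11 had 342 and 264 and 260.1 and 217 CPM on membranes and 782 and 606 and 685 and 542 in the pulldown. SPC1 and SPC2 were thus 5.97 and 3.65 above membrane polysomes on the log2 scale, and SPC3 and SEC11 1.20 and 1.36.

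**Figure D3:**
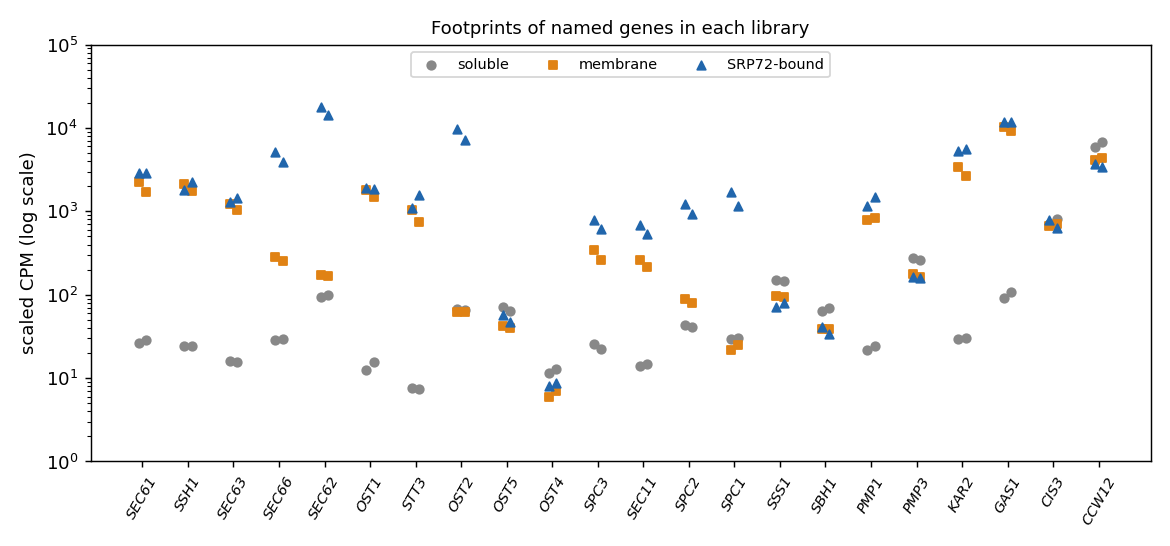
TMM-scaled CPM (y axis, log scale) of 22 named genes (x axis) in each of the 6 libraries; circles are soluble, squares membrane and triangles SRP72-bound, with replicate 1 left of replicate 2. SEC61, SSH1, SEC63 and OST1 are high in both membrane and SRP72-bound libraries, SEC62, SEC66, OST2, SPC1 and SPC2 only reach their high values in the SRP72-bound libraries, and OST4, OST5, SSS1, SBH1 and PMP3 are lower there than in the soluble libraries under TMM (OST4, OST5 and PMP3 change sign with cytosolic scaling).

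SRP72-bound messages were then ordered by the signal-to-stop length, the number of codons from the first signal's position to the stop codon, the signal included, as the authors' table gives it. None of the tested signal-class genes had 40 codons or fewer. Groups below include their upper limit. With up to 70 codons, 10 of 18 genes were higher and 4 lower, at a median of 0.88. With 70 to 110 codons, 26 of 36 were higher and 8 lower (median 2.19). With cytosolic scaling these groups had 14 higher and none lower, and 31 higher and 1 lower. From 110 to 220 codons 130 of 146 were higher (median 5.36), from 220 to 500 codons 317 of 332 (6.05), and above 500 codons 260 of 264 with none lower (6.32). The longest and shortest groups differed by 5.45 on the log2 scale, by 3.88 among TMD genes alone, and by 2.204 between the outer groups when genes were split by length into 4 groups of equal size. Spearman's rho over the 796 genes was 0.33, and 0.22 with ORF length in its place, a description across genes of the same libraries. Median ORF length was 83 codons in the shortest group and 684 in the longest, and its part in the trend was not tested.

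Counts for the short genes are given here by class. In the SS class 1 of 4 genes with up to 70 codons was higher and 2 were lower, and none of 5 genes with 70 to 110 codons was higher while 4 were lower. With cytosolic scaling the SS counts were 2 higher and none lower with up to 70 codons, and 3 higher and 1 lower with 70 to 110. The gene still lower there is RPP2B, a stalk protein of the cytosolic ribosome that is not known as secretory. In the TMD class 9 of 14 and 26 of 31 were higher in the same groups, with medians of 2.45 and 3.07. With 110 to 220 codons the SS median was 3.39 and the TMD median 5.84. The difference between the classes was not tested.

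Of 22 tested members of a list of very short membrane and secreted proteins, 13 were higher and 8 lower (median 2.72; 16 higher and none lower with cytosolic scaling). The vacuolar ATPase subunits VMA9, of 73 codons, VMA3, of 160, and VMA11, of 164, which are hydrophobic almost throughout, were higher by 3.20 ± 0.19, 5.33 ± 0.20 and 6.78 ± 0.21. YOS1, needed for ER to Golgi transport, went from 37.1 and 41.9 to 213 and 163 CPM (2.25 ± 0.14), SNA2 gained 2.12 ± 0.16, and KSH1 was at 0.14 ± 0.09 and not called. PMP1 and PMP2, proteolipids of 40 and 43 codons that regulate the proton pump, went from 21.8 and 24.2 to 1155 and 1507 CPM (5.85 ± 0.17) and from 37.8 and 35.005 to 1608 and 1799 CPM (5.55 ± 0.13). They are close relatives whose reads may be shared, the table puts both in the TA class, and their first signals begin at codons 6 and 8. PMP3, of 55 codons and also with its first signal at codon 6, was lower, from 273 and 263 to 164 and 159 CPM (−0.73 ± 0.08; 0.07 with cytosolic scaling). The stress-induced HOR7 and DDR2, of 59 and 61 codons in the SS class, were lower, at −1.09 ± 0.13 and −1.07 ± 0.14, and neither was called with cytosolic scaling.

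Against membrane polysomes the medians were highest at 70 to 110 codons and lowest in the longest group. In this contrast 1604 genes were higher and 1547 lower in the SRP72-bound libraries (29.7% and 28.7% of 5393), or 3066 and 312 with cytosolic scaling (56.9% and 5.79%). The median excess of SRP72-bound over membrane polysomes was 1.18 with up to 70 codons, 2.38 with 70 to 110, 1.91 with 110 to 220, 1.013 with 220 to 500 and 0.53 above 500, and rho was −0.41. Genes called higher in these groups were 12 of 18, 25 of 36, 127 of 146, 278 of 332 and 164 of 264. With cytosolic scaling the counts were 15, 30, 132, 315 and 231, and the medians 1.61, 2.81, 2.34, 1.46 and 0.96. Both contrasts use the same SRP72-bound libraries, so the values stand side by side and are not independent. Among named genes large excesses were found in membrane proteins, with OST2, SEC62 and SPC1 above, PKR1, which assembles the vacuolar ATPase, at 6.53 (139 and 137 CPM on membranes, 14569 and 11044 in the pulldown), the Golgi protein SFT2 at 6.21 and the nuclear envelope protein APQ12 at 5.13. BAP2, a long amino acid permease with 510 codons from its first signal to the stop, was an outlier in its length group, at 878 and 671 CPM on membranes and 9657 and 7562 in the pulldown (3.47).

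By class, 450 of 541 TMD genes were above their membrane level (median 1.27), 108 of 181 SS genes (0.45) and 48 of 74 SSTMD genes (0.57), and 509, 147 and 67 with cytosolic scaling. For KAR2, PMA1 and GAS1 the differences were 0.85, 0.09 and 0.26, of which the KAR2 value was called.

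**Figure D4:**
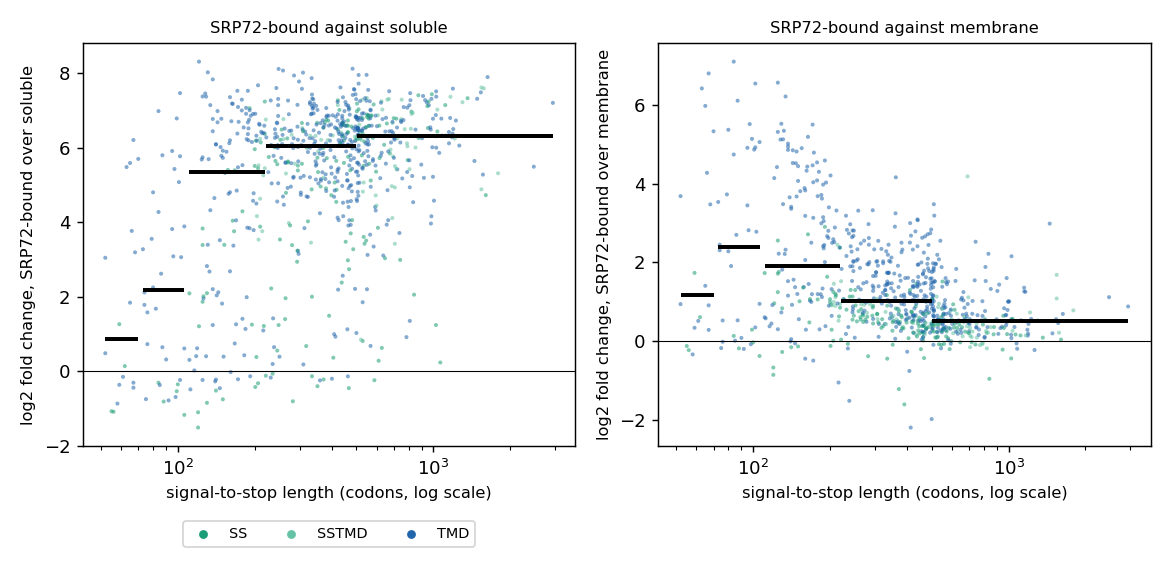
Log2 fold change of SRP72-bound over soluble polysomes (left) and over membrane polysomes (right) against signal-to-stop length in codons (x axis, log scale), for 796 signal-class genes coloured by class, with bars at the medians of the length groups. Over soluble polysomes the medians climb from 0.88 to 6.32; over membrane polysomes they fall from 2.38 in the group of 70 to 110 codons to 0.53 in the longest.

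The fold change varied less with the position of the first signal. Genes with a first signal in the first 30 codons (426 of 467 higher, median 6.03), at codons up to 60 (108 of 112, 6.41) and up to 120 (120 of 124, 6.18) were close to each other. The medians then declined to 5.25 for codons up to 240 (37 of 39 higher) and to 4.57 beyond codon 240, where 52 of 54 were still higher and none lower. Spearman's rho over the 796 genes was −0.0006, with most genes in the first groups. The latest and earliest groups differed by −1.45, by −1.26 among genes with over 110 codons from signal to stop, and by only −0.28 when genes were split by position into 4 groups of equal size. Against membrane polysomes rho with position was 0.35, with medians of 0.64 in the earliest group and 1.44, 1.40, 1.15 and 1.39 in the later ones. The earliest group held every SS and SSTMD gene, and its TMD genes alone had a median of 1.06 against membrane polysomes.

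Proteins with a very late first signal were still captured. The inner nuclear membrane proteins HEH2, with its first signal at codon 316, and SRC1, at codon 453, rose from 9.03 and 8.50 to 325 and 299 CPM (5.15 ± 0.11) and from 22.6 and 23.6 to 743 and 583 CPM (4.84 ± 0.15). BRL1, an essential nuclear envelope protein with its signal at codon 299, rose by 5.48 ± 0.17, and the sterol transporter AUS1, at codon 388, by 4.58 ± 0.16. MPS3 of the spindle pole body, with an earlier first signal at codon 153, rose by 5.44 ± 0.10. ATG32, the mitophagy receptor of the mitochondrial outer membrane with its signal at codon 388, had 3.48 and 2.79 CPM in the soluble and 2.40 and 3.10 in the SRP72-bound libraries, which overlap (−0.22 ± 0.20, not called). Of 13 tested proteins of the nuclear envelope and pore membrane, 12 were higher, at a median of 5.48, and all 13 were above their membrane level.

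**Figure D5:**
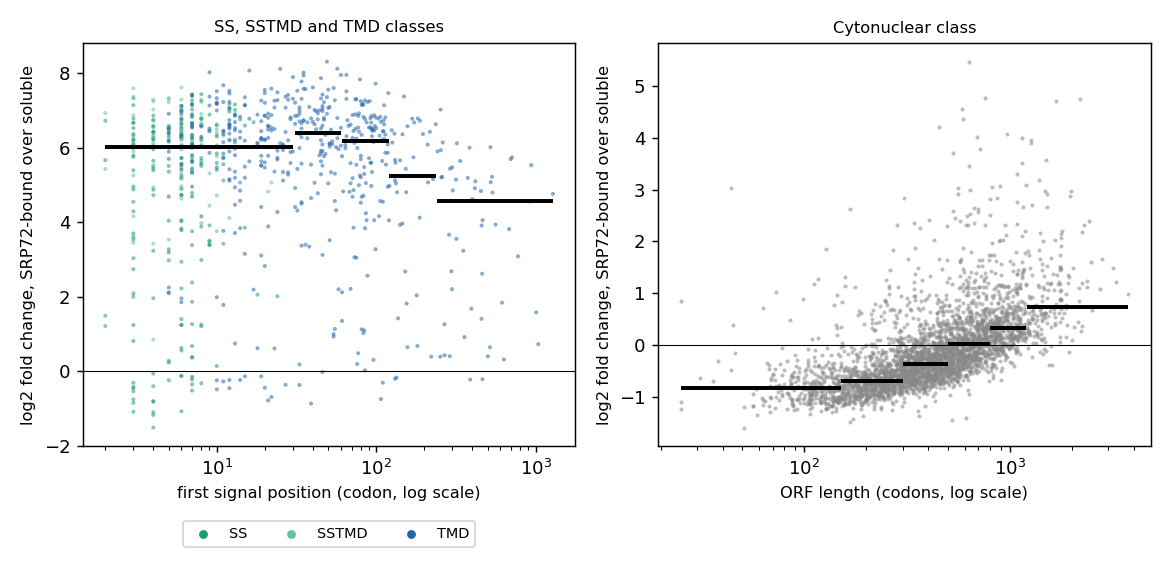
Log2 fold change of SRP72-bound over soluble polysomes (y axis) against the codon of the first signal for 796 signal-class genes (left) and against ORF length in codons for 3419 Cytonuclear genes (right), with bars at group medians; both x axes are logarithmic. Left, the medians are 6.03, 6.41, 6.18, 5.25 and 4.57; right, they rise from −0.83 for ORFs of up to 150 codons to 0.73 above 1200 codons.

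Cell wall mannoproteins spread widely. Of 30, 22 were higher and 3 lower, with a median of 3.65 and quartiles of 0.43 and 6.27. The glucan-modifying enzymes GAS1 and BGL2 and the GPI protein ECM33 were among the captured, at 6.90 ± 0.17, 6.67 ± 0.19 and 6.50 ± 0.21. GAS1 had 91.2 and 107 CPM in the soluble and 11759.6 and 11875 in the SRP72-bound libraries. CCW12, an abundant wall protein of 133 codons (YLR110C, chromosome XII 369697 to 370098 in R64), was lower, from 5897 and 6843 to 3716 and 3371 CPM (−0.85 ± 0.12), as was the 92-codon CWP2 (−0.81 ± 0.12). CIS3, PIR1 and CWP1, mannoproteins of the wall of 227, 341 and 239 codons, were not called: CIS3 had 704 and 818 CPM in the soluble and 779 and 623 in the SRP72-bound libraries, which overlap, and the 3 values were −0.12, −0.13 and −0.06. TIP1, TIR1, SED1 and CCW14 lay between, at 0.38 ± 0.12, 1.24 ± 0.17, 2.00 ± 0.18 and 2.23 ± 0.17. The TIP1 call was lost without soluble replicate 2 (0.34) or SRP72-bound replicate 1 (0.22), and PIR1 was called lower without SRP72-bound replicate 1 (−0.28). With cytosolic scaling CIS3, PIR1 and CWP1 were called higher, at 0.67, 0.66 and 0.73, and CCW12 and CWP2 were not called. The first signals of all of these wall proteins begin at codons 3 to 9.

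Some SS genes that were lower are not known as secretory proteins. RPP2B, a stalk protein of the cytosolic ribosome, was at −1.17 ± 0.11, and PRO3, which makes proline in the cytosol, at −0.80 ± 0.10, the latter not called with cytosolic scaling. Their class rests on a predicted signal in the authors' table.

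Listed tail-anchored proteins lay slightly below zero. Of 34 listed, 29 were lower and 3 higher, with a median of −0.63 (0.16 with cytosolic scaling, when 9 were higher and 1 lower). The SNAREs SFT1 and SED5 were at −1.14 ± 0.14 and −0.58 ± 0.07 (SED5 0.21 with cytosolic scaling), and the ubiquitin-conjugating enzyme UBC6 at −0.82 ± 0.07, not called with that scaling. The 3 that were higher are SNAREs or their partners. TLG2 went from 19.1 and 19.9 to 256 and 203 CPM (3.56 ± 0.13). It has 79 codons from its first signal to the stop, against a list median of 23, and the authors place it in the TMD class. SEC20 gained 1.65 ± 0.10 and USE1 0.51 ± 0.08. Whether their membrane segments lie at the very end of the chain is not shown here. Of 6 genes of the GET pathway 2 were higher and 2 lower (33.3% each, against 39% and 38.9% of all tested genes). With cytosolic scaling 5 were higher and none lower, against 71% and 2.41% of all tested. The higher ones under TMM were the membrane receptors GET1 at 5.79 ± 0.23 and GET2 at 2.68 ± 0.14.

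Of 8 genes of SRP and its receptor 6 were higher and 1 lower, at a median of 1.74. YKL154W, the membrane-spanning receptor subunit, was at 6.02 ± 0.21, and YDR292C, the peripheral subunit, at 1.03 ± 0.09. SRP72, the tagged subunit, rose from 68.2 and 70.6 to 651 and 461 CPM (3.002 ± 0.16), SRP21 by 2.63 ± 0.14 and SRP54, which binds signals, by 2.46 ± 0.13. SEC65 gained 0.68 ± 0.08, SRP68 was at 0.20 ± 0.08 and not called, and SRP14 was lower at −0.83 ± 0.08 (−0.04 and not called with cytosolic scaling). On membranes SRP72 stood at 79.8 and 79.0 CPM, SRP21 at 45.6 and 42.5 and SRP54 at 116 and 126, so for these the high values were in the pulldown.

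Genes of the mito class were called higher than in soluble polysomes about as often as all genes, and how many stood below their membrane level depends on the scaling. Of 24 matrix enzymes 18 were lower and 1 higher (median −0.53; 0.27 with cytosolic scaling), and 23 were below their membrane level (13 higher and none lower than soluble, and 10 below membrane, with cytosolic scaling). Of 21 tested inner membrane carriers 7 were higher (33.3%, against 39% of all tested genes) and 4 lower, at a median of 0.22. With cytosolic scaling 20 were higher and none lower, where 71% of all tested genes were higher. Below their membrane level were 13 carriers (28.7% of all tested genes), or 12 with cytosolic scaling (5.79% of all tested). The ADP/ATP carrier PET9 had 190.1 and 242 CPM in the soluble, 1816 and 2241 in the membrane and 377 and 367 in the SRP72-bound libraries. It was thus 0.78 ± 0.15 against soluble and −2.45 against membrane polysomes, and its relative AAC3 was at 1.37 and −2.42. FMP30 and FMP25, mitochondrial proteins that the table puts in the TMD class, were at 0.93 and 1.03 against soluble and −2.19 and −1.97 against membrane polysomes. In the whole mito class 36 of 536 genes were above and 327 below their membrane level (median −0.43), against 132 above and 204 below with cytosolic scaling (median 0.0074). A few genes of this class were strongly captured. MMM1, which spans the ER membrane at ER to mitochondria contacts, rose from 6.58 and 6.18 to 345 and 299 CPM (5.65 ± 0.12), the fumarate reductase OSM1 from 5.48 and 6.06 to 260.3 and 294 CPM (5.59 ± 0.13), and the phosphatidylserine decarboxylase PSD1 by 3.80 ± 0.11.

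Ribosomal protein and most glycolytic messages were lower under TMM, and TRiC messages were mostly not called. All 20 single-copy ribosomal protein genes were lower, at a median of −1.05 (−0.25 with cytosolic scaling, when 10 were lower and 1 higher). RPL29 was at −1.36 ± 0.11. Glycolytic genes had 14 of 19 lower (median −0.64; 7 higher and 1 lower with cytosolic scaling, median 0.15), and of 8 TRiC subunits 2 were higher and 2 lower (median −0.06; all 8 higher with cytosolic scaling, median 0.73). Ribosomal protein, glycolytic and TRiC genes together are the reference of the cytosolic scaling. It centres them as a group by construction, so their values under it are no separate result. Factors that bind nascent chains had 11 of 12 lower (median −0.72; 3 higher and 2 lower with cytosolic scaling, median 0.07), with the subunits EGD1 and EGD2 of the nascent polypeptide-associated complex at −1.13 ± 0.09 and −1.06 ± 0.09, both also lower with cytosolic scaling (−0.34 and −0.27).

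Among Cytonuclear genes 242 were up by over 2-fold and 10 by over 16-fold (against 25.8% and 15.5% of all tested genes). None of the 242 overlapped an ORF of the signal classes, but only 4 of all 3419 tested Cytonuclear genes did (0.117%). Overlap with ORFs of the class Exception was not counted. ABP140, an actin-binding tRNA methyltransferase, stood highest, at 64.5 and 41.3 CPM in the soluble and 2756 and 1968 in the SRP72-bound libraries (5.48 ± 0.33), which do not overlap. The COPII scaffold SEC16 went from 92.6 and 97.8 to 2697 and 2436 CPM (4.75 ± 0.12), CDC27 of the anaphase-promoting complex from 18.1 and 16.8 to 510.4 and 448 CPM (4.78 ± 0.14) and the nuclear basket protein MLP2 from 35.3 and 29.2 to 931 and 773 CPM (4.72 ± 0.15). The others were UBX2 of ER-associated degradation, which is known as an ER membrane protein, at 4.57, the actin-binding ABP1 at 4.37, the thiamine regulator THI2 at 4.21, the eisosome protein SEG1 at 4.08, the phosphatase PPZ1 at 4.02 and the polarity protein MSB1 at 4.004.

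Levels on membranes differed among these 10, and those of UBX2, PPZ1, CDC27, THI2 and MSB1 are given here. UBX2 had 220.4 and 195 CPM there and 182 and 184 in the pulldown, and PPZ1 139 and 128 and 159 and 152, differences that were not called (−0.19 and 0.23). CDC27, THI2 and MSB1 had 29.7 and 24.1, 1.69 and 1.501 and 48.1 and 48.0 CPM on membranes against 510.4 and 448, 27.0 and 21.9 and 616 and 449 in the pulldown. The latter were 4.15, 3.93 and 3.47 above membrane polysomes on the log2 scale.

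Within the Cytonuclear class the fold change followed ORF length, a relation looked at after the data had been seen. Medians were −0.83 for ORFs of up to 150 codons (11 of 323 higher), −0.70 for 150 to 300 (41 of 791), −0.37 for 300 to 500 (90 of 948), 0.01 for 500 to 800 (238 of 780), 0.33 for 800 to 1200 (233 of 403) and 0.73 above 1200 codons (142 of 174). Spearman's rho was 0.72 over 3419 genes, described across genes of the same libraries. With cytosolic scaling the same medians ran from −0.05 to 1.52, so the order of the groups held, and the second and the third changed sign. Against membrane polysomes rho was 0.24. The cytosolic reference includes ribosomal proteins with a median length of 150 codons, in the shortest of these groups, and the part of length in the shift between scalings was not tested.

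A separate culture harvested with 100 µg/mL cycloheximide (CHX), an inhibitor of elongation, supplied 1 soluble and 1 SRP72-bound polysome library. They share no library with the comparison and have no replicate, so their values are given without a test. Signal-class genes took 3.66% of soluble and 48.6% of SRP72-bound footprints there, and 1345 genes (24.9% of 5393) were past 2-fold. Across the 5393 genes the log2 ratios with CHX and without drug had a Pearson r of 0.967 and a rho of 0.923, between different cultures of the same strain. Wall proteins differed: 12 of 30 were more than 1 log2 unit higher with CHX, against 22 of 181 SS genes and 2.32% of all tested genes. Over the 30 the median difference was 0.44. CIS3 stood at 2.81 with CHX against −0.12 without, CWP1 at 2.83 against −0.06, TIP1 at 3.29 against 0.38 and TIR1 at 4.51 against 1.24, whereas CCW12 was at −0.98 and −0.85. CIS3, CWP1, TIP1 and TIR1 lay below the median of the 30 without drug (3.65), so their higher values alone say little about CHX. In the TMD class 107 of 541 were more than 1 log2 unit lower with CHX, against 7 of 181 SS genes and 5.19% of all tested. Cytonuclear genes named here were chosen for a high value without drug, so a lower value in another culture says little about CHX. Of the 10 up by over 16-fold without drug, 4 were more than 1 log2 unit lower with CHX and none higher, with a median difference of −0.74. MLP2 and MSB1 were among these 4. MLP2 stood at 0.68 with CHX against 4.72 without drug, and MSB1 at 0.60 against 4.004. The limit set by the choice also applies to PKR1 and SFT2, named above for large excesses without drug. PKR1 stood at 4.83 against 7.47 and SFT2 at 4.66 against 7.15, while SEC61 was at 7.18 and 6.71 and KAR2 at 7.48 and 7.52.

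The authors' deposited table also marks genes by their relation to SRP. Per its notes, dependence is a prediction from a score of another study, direct binding is a rise of SRP72-bound polysome footprints after a signal, and prerecruitment is a higher level of SRP72-bound monosome than polysome footprints before a signal is exposed. Only the first is independent of the reads used here, and all are set beside the fold changes as a description. Signal-class genes marked SRP-dependent in the authors' deposited table had a median of 6.29 (286 of 296 higher) and those marked independent 5.98 (214 of 232). Against membrane polysomes these medians were 1.18 and 0.49. Genes marked as bound directly had a median of 6.59 (214 of 217 higher) and those not 6.06 (333 of 351), at 1.73 and 0.57 against membrane polysomes. Genes marked as prerecruited had a median of 6.31 (478 of 484 higher) and those not 4.83 (69 of 84). Here the order turned against membrane polysomes, with medians of 0.81 for marked and 1.56 for unmarked genes. The unmarked genes also had a shorter median signal-to-stop length, and the part of length in these differences was not tested. For the 217 tested genes with a codon of direct binding in the authors' deposited table, that codon lay a median of 72 codons after the start of the first signal, with quartiles of 60 and 97 and a range of 37 to 180.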

How the data were processed

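Footprint counts of 8 libraries were used: soluble, membrane and SRP72-bound polysomes without drug (2 each) and soluble and SRP72-bound polysomes from the cycloheximide culture (1 each). Monosome and RNA samples are not used here. The deposited counts are unscaled reads per ORF, per the file headers. The submitters' processing notes name Bowtie, TopHat, CASAVA, cutadapt 1.3 and sacCer3. The handling of multiply mapping reads and the use of strand in counting are not given in the sources used, so close paralogs and overlapping ORFs are uncertain. Classes, first signal positions, signal-to-stop lengths and GPI marks are the authors' own, from predictions by several programs per the file headers, with positions in codons. The authors' deposited log2 enrichments (DESeq2-scaled reads, per the file headers) served only as a check: over 4908 ORFs they equal the log2 ratio of summed counts plus 1.70 (SD 0.0207).

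From the counts, 3 lines without an ORF were dropped, no column was left unmapped, and names came from the RefSeq R64 gene table. In R 4.3.3, edgeR 4.0.16 (filterByExpr with minimum count 10 and total 15, TMM, quasi-likelihood test, Benjamini-Hochberg over 5393 genes at 0.05) was fitted to 3 groups without a replicate block, with 3 residual degrees of freedom and a common biological coefficient of variation of 0.0805. SE is the absolute log2 fold change divided by the square root of the F statistic. TMM factors of the soluble pair were 1.60 and 1.56, of the membrane pair 0.96 and 1.02, of the SRP72-bound pair 0.61 and 0.67. In each library the 10 most abundant genes held 14.5% to 18.5% of counts. The cycloheximide ratio uses TMM on its 2 libraries and a prior count of 2. Depth there was 21.513 M counts in each library. DESeq2 1.42.0 was an alternative, and the fit was tested on simulated data. Lists and classes are described by counts and medians, without set tests.

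Members, gene lists and named genes were chosen with earlier results of these data known. Named genes are list members, the genes with the largest and smallest fold changes overall and per class, the 10 leading Cytonuclear genes, and the extremes and middles of each position and length group.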

Additional observations from a re-analysis of the deposited data

How the results depend on the processing

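Scaling moved the counts of calls, and the grouping of genes moved the position and length differences. With cytosolic scaling 3827 genes were higher and 130 lower than in soluble polysomes, and 3066 higher and 312 lower than in membrane polysomes, with the median gene at 0.75 in place of −0.04. The cause was not tested. Medians changed sign for the TA (0.24), mito (0.75) and Cytonuclear (0.50) classes, the mito one also with relative log expression factors (0.026). So did OST4 (0.25), OST5 (0.42), SEC72 (0.18), PMP3 (0.066), CIS3 (0.67), PIR1 (0.66), CWP1 (0.73), SED5 (0.21), TDH3 (0.11) and APE1 (0.44). The difference between late and early first signals was −1.45, and became −1.29 with no filter, −0.28 with 4 equal groups of genes, −1.26 with over 110 codons from signal to stop and −1.64 in the TMD class only. That between long and short signal-to-stop lengths was 5.45, and became 4.995 with no filter, 2.204 with 4 equal groups of genes and 3.88 in the TMD class only. Leaving out each of the 6 libraries in turn gave −1.46 to −1.43 for position, 5.01 to 5.50 for signal-to-stop length and 1.51 to 1.74 for the length difference of Cytonuclear genes (1.56 with all), and 1950 to 2125 genes higher and 1834 to 2086 lower. With the replicate number as a block, 2145 genes were higher and 2174 lower, and 1674 and 1643 against membrane polysomes. The labels do not say that a number marks a shared culture, and replicate differences of the SRP72-bound and soluble libraries correlated at 0.128 across genes. Of the 102 named genes, 101 kept their call with the block and with DESeq2 (2127 higher, 1785 lower), and 99 or more without any 1 library; APE1, TIP1 and OST5 lost it under some of these omissions and TDH3 under the block. Only 80 of the 102 kept their call with cytosolic scaling, where 10 lost it, 2 gained one and 10 changed sign. Some of the named genes were chosen for extreme fold changes in these same libraries. With 2 libraries per fraction and 3 residual degrees of freedom, small fold changes near the threshold are the least secure.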
